A study of Homo sapiens with 24 samples.

Results

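The CLK genes encode the CDC-like kinases, and the family has 4 members in human, CLK1, CLK2, CLK3 and CLK4. They were taken from the deposited tables by symbol, as 4 of the 60308 genes of the exon table and 4 of the 37473 genes of the intron table, and were followed in all 24 libraries. U2OS, the line used, is an established human osteosarcoma cell line. Ctrl cells received 0.12% DMSO over 2 h, and NaAsO2 cells received 500 µM sodium arsenite, which causes oxidative stress and the assembly of stress granules, during 60 min. RK-33 cells were exposed to 6 µM RK-33, an inhibitor of the RNA helicase DDX3, and Combo cells were exposed to RK-33 for 1 h before NaAsO2 was added at the same dose. RK-33 came from a stock in DMSO, and the study states that the DMSO of Ctrl matched RK-33 in duration and timing. Whether NaAsO2 cells received DMSO is not stated, so a difference in vehicle cannot be told apart from the treatments compared with them. After a slow spin that removed nuclei, a faster spin separated each lysate into a soluble fraction and an insoluble fraction enriched for ribonucleoprotein granules. This gave 8 groups of 3 libraries. The study describes the replicates as repeats of the experiment, and the p-values measure the spread between these libraries only.

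CLKs phosphorylate SR proteins, the serine and arginine rich factors that help to choose splice sites, and so control where these factors sit in the nucleus and how they act. CLK mRNAs are themselves regulated by splicing. Part of the CLK1 and CLK4 transcripts is known to keep introns around exon 4, and such transcripts are held in the nucleus until a change in kinase activity or a stress lets them be spliced, while skipping of exon 4 gives a shortened protein without the kinase domain. RNA from introns that remains in the cytoplasm can come from incompletely spliced mRNA, from excised introns or from nuclei that broke during lysis, and counts per gene cannot tell these apart.

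The libraries held 10968059 to 19799530 exon plus intron counts. Introns took 13.3% to 28.4% of them in the soluble fraction and 17.2% to 37.5% in the insoluble fraction. Replicate 3 of the NaAsO2 insoluble fraction stood apart, since the cytoplasmic RNA RN7SL1 held 5.79% of its exon counts, against 0.426% to 1.23% in the other insoluble libraries and 7.51% to 15.5% in the soluble libraries. The chi-square of exon counts per degree of freedom against its 2 replicates was 142 and 130. Replicate 3 of the RK-33 soluble fraction (32.4 and 23.1, with the RN7SL1 share of 15.5%) and replicate 3 of the Combo insoluble fraction (25.5 and 32.1) were also apart, and the other pairs of replicates were at 2.39 to 7.01. Where leaving out 1 of these 3 libraries ended or added a call of a CLK gene that is discussed, that value is given. Calls of other genes were not followed with a library left out. Of the markers of the cell line, RUNX2, which marks cells of the bone lineage, had a mean exon level of 67.1 CPM (counts scaled to a common library total) in the soluble fraction, SPARC, COL1A1 and VIM were at 1887.2, 1126.9 and 941 CPM, and COL1A2, BGLAP and IBSP were at or near 0. Among the markers of other cells, the keratins KRT8 and KRT18 were at means of 302 and 259 CPM, while EPCAM, CDH1 and CD34 were at 4.82, 5.27 and 5.85 CPM, PTPRC at 0.871 and HBB at 0.0244 CPM.

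CLK1 (ENSG00000013441.17) lies on the minus strand of GRCh38 at chr2:200853009-200864691, CLK2 (ENSG00000176444.19) on the minus strand at chr1:155262868-155278491, CLK3 (ENSG00000179335.20) on the plus strand at chr15:74598500-74645414, and CLK4 (ENSG00000113240.14) on the minus strand at chr5:178602664-178630615. In each gene, the canonical transcript of GENCODE release 44 had 13 exons and 12 introns. Exons 5 to 12 had the same lengths in all 4 genes, from 67 to 167 bases, and exon 4 had 91 bases in CLK1 and CLK4, 88 in CLK2 and 97 in CLK3. The authors counted as exon every base that lies in an exon of any annotated transcript. The annotation holds 8 transcripts of CLK1, 8 of CLK3 and 7 of CLK4 with the biotype retained intron, and none of CLK2. Exons of these and of other transcripts covered much of what is intron in the canonical transcript, and those bases were counted as exon. The affected share of the canonical intron bases was 33% in CLK1, 16.4% in CLK2, 35.3% in CLK3 and 24.2% in CLK4, against a median of 2.66% over 18406 genes, 91.9%, 83.4%, 92.6% and 88.5% of which had a smaller share. Introns 3 and 4, which flank exon 4, were wholly counted as exon in all 4 genes. In addition, introns 2 and 7 of CLK1, introns 10 and 11 of CLK2, intron 12 of CLK3 and introns 11 and 12 of CLK4 were counted so in full.

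**Figure D1:**
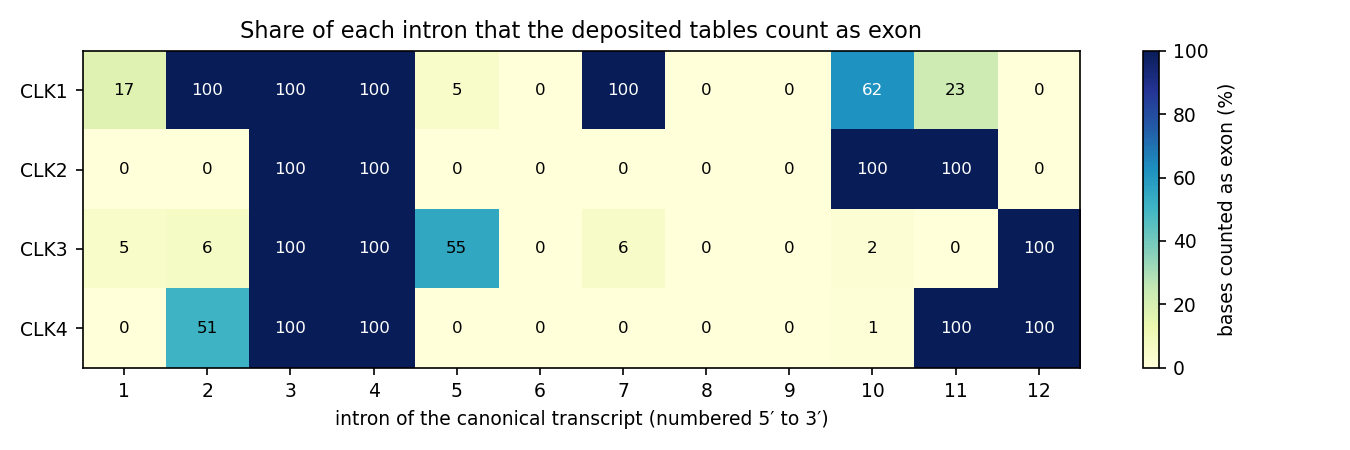
The colour and the number in each cell give the percentage of bases of an intron of the canonical transcript (x axis, numbered from the 5′ end) that the deposited tables count as exon, for each CLK gene (rows). Columns 3 and 4, the introns on either side of exon 4, read 100 in every gene, while introns 6, 8 and 9 read 0 in every gene.

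A retained intron 3 or 4 was therefore part of the exon level, and the intron level and the intron-to-exon ratio came from the remaining intron bases. In CLK2, CLK3 and CLK4 some of these lay outside the introns of the canonical transcript, and in CLK3 most did. The CLK3 intron entry held 24331 bases, while its canonical introns held 12512, of which 4418 were counted as exon. For CLK2 these numbers were 11560, 8483 and 1387. The splice sites of intron 4 are shown because this intron was counted as exon in each member. They are from the reference genome, and the intron's first 2 bases (GT) or last 2 bases (AG) are in capitals. The donor sites, with 3 bases of exon 4 before the intron, read as follows.
CLK1: gatGTatagaatatttttca
CLK4: gatGTatagaatatttttca
CLK2: gatGTacaagccaaatcgta
CLK3: gatGTacagccacctttcgt
These lie at chr2:200860108-200860127 for CLK1, chr5:178617327-178617346 for CLK4, chr1:155268691-155268710 for CLK2 and chr15:74622214-74622233 for CLK3. The CLK1 and CLK4 windows were identical over all 20 bases. Each of the 4 donor sites matched the donor consensus CAGGTAAGT, read across 3 exonic and 6 intronic bases, at 4 of 9 positions. Only 1.6% of 184795 annotated introns that begin with GT had 4 matches or fewer, and the other introns of the CLK genes had 5 to 9.

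The acceptor sites of intron 4, with 3 bases of exon 5 after the intron, read as follows.
CLK1: gatttatttctctcttttAGatg
CLK4: tttttccctcctcactctAGatg
CLK2: cctgctctctttcatttcAGatg
CLK3: caatttcttttctctcctAGatg
Their positions are chr2:200859744-200859766 for CLK1, chr5:178616946-178616968 for CLK4, chr1:155268357-155268379 for CLK2 and chr15:74622474-74622496 for CLK3. Of the 17 bases ahead of the last 3 intronic bases, 14 in CLK1, 15 in CLK2, 15 in CLK3 and 16 in CLK4 were pyrimidines. Intron 4 measured 378 bases in CLK1, 348 in CLK2, 277 in CLK3 and 395 in CLK4.

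Counting used no strand, and the overlap of the members with other genes was small. The authors' introns were genes minus merged exons, so by construction the intron entries shared 0 bases with the exons of other genes. Of the CLK2 intron entry, 4.38% lay in introns of HCN3 on the opposite strand, and of the CLK3 intron entry 8.84% in introns of EDC3. The exon entry of CLK3 shared 3.56% of its bases with exons of EDC3, which was expressed at 28.8 to 49.1 CPM. Of the processed copies, CLK2P1 had 0 to 2 and CLK3P2 0 to 11 exon counts in a library.

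The members differed in level per length. Over the 24 libraries the exon level, in CPM normalised with TMM factors, which set the library totals from the bulk of genes, per kilobase of exon, was 7.74 ± 2.47 for CLK1, 6.27 ± 1.03 for CLK2, 2.15 ± 0.409 for CLK3 and 1.16 ± 0.301 for CLK4 (mean ± SD, n = 24). The exon entries contain the bases of the retained introns and, in CLK3, 19697 bases of which 9.4% belong to the canonical transcript. These levels per length are therefore not levels of the usual mRNA, and no order of the members is read from them. All 4 members passed the filter on low counts at every step.

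The exon level of CLK1 was lowest after NaAsO2 and highest in Combo. In the soluble fraction it was 36.8, 30.5 and 32.3 CPM in Ctrl, 24.5, 28 and 24.5 CPM after NaAsO2, 44.1, 37.1 and 31.2 CPM after RK-33 and 56.2, 56.9 and 60.7 CPM in Combo. The insoluble libraries gave 38.5, 35.7 and 36.1 CPM in Ctrl, 26, 22.6 and 24.8 CPM after NaAsO2, 47.0, 44.9 and 41.8 CPM after RK-33 and 57.2, 64.7 and 47.8 CPM in Combo. All NaAsO2 libraries were below all Ctrl libraries of the same fraction, and all Combo libraries were above all libraries of the other treatments in both fractions, while the soluble RK-33 and Ctrl libraries overlapped.

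**Figure D2:**
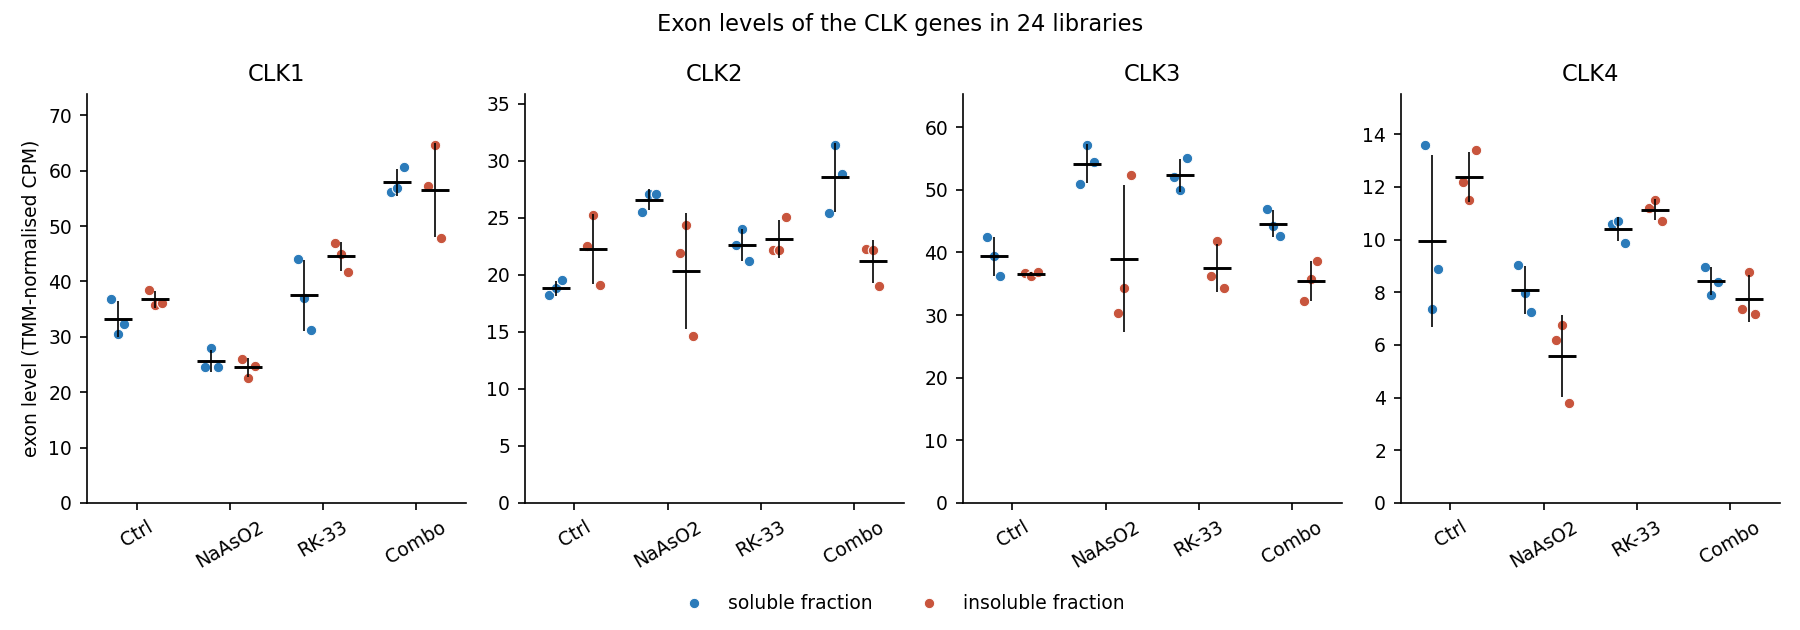
Each point is the exon level (TMM-normalised CPM, linear axes from 0) of a CLK gene in 1 library, by treatment and fraction, and the horizontal and vertical bars give the mean and SD of 3 libraries. CLK1 averages 58.0 and 56.6 CPM in the soluble and insoluble fractions of Combo against 25.7 and 24.5 CPM after NaAsO2, and the low CLK4 point of the NaAsO2 insoluble group, at 3.79 CPM, is replicate 3.

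Ordered by mean exon level, the neighbouring groups of CLK1 that did not overlap were Combo and RK-33 in the insoluble fraction and Ctrl and NaAsO2 in the soluble fraction, 2 of 7 neighbouring pairs. In CLK2 it was 1 of 7, the NaAsO2 soluble and RK-33 insoluble groups, in CLK3 2 of 7, on either side of the Combo soluble group at 44.6 CPM, and in CLK4 1 of 7, between Combo at 7.76 and NaAsO2 at 5.57 CPM in the insoluble fraction. Groups ordered by their own means can show such gaps in any gene. The counts were not set against those of other genes and are a description only.

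The comparison of Combo with NaAsO2 sets stressed cells with and without RK-33 against each other. CLK1 rose 2.26-fold in the soluble fraction (log2 difference 1.17, SE 0.13, adjusted p = 3.14e-06, edgeR quasi-likelihood test) and 2.31-fold in the insoluble fraction (1.21, SE 0.13, adjusted p = 2.89e-06). Of all genes tested, 4.79% were called higher in this comparison for the soluble and 6.88% for the insoluble fraction. CLK1 was the only member whose exon level was called here, and the 95% intervals of the others ran from −0.56 to 0.45 for the soluble and from −0.41 to 0.84 for the insoluble fraction. When the insoluble libraries of both treatments were fitted without the other groups, the difference for CLK1 was 1.22 with an adjusted p of 0.0814. Against RK-33 alone, CLK1 rose in the Combo soluble fraction by 0.63 (SE 0.13, adjusted p = 0.00459, with 2.9% of genes called higher) and differed by 0.34 in the insoluble fraction (SE 0.13, adjusted p = 0.111), or by 0.45 (adjusted p = 0.0439) without replicate 3 of Combo.

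Beside the CLK1 values, the summed exon level of RNAs known to stay in the nucleus was also lowest after NaAsO2 and was not highest in Combo. Most of this sum was MALAT1, so it does not describe the single RNAs. In the soluble libraries MALAT1 averaged 9875.9 CPM, NEAT1 482, TUG1 150 and KCNQ1OT1 23.4 CPM. The insoluble means were 4129.6, 1631, 187 and 73.1 CPM. The summed exon level of MALAT1, NEAT1, KCNQ1OT1 and TUG1 was 2472.9 to 3696.6 CPM in the NaAsO2 insoluble libraries, 7090.2 to 8974.4 CPM in Ctrl, 6780.6 to 7632.1 CPM after RK-33 and 5624.3 to 6487.2 CPM in Combo. The soluble sums were 6426.4 to 8686.8 CPM after NaAsO2, 11260.8 to 15788.5 CPM in Ctrl, 8231.5 to 12878.4 CPM after RK-33 and 9230.3 to 12080.5 CPM in Combo. In Combo against NaAsO2, KCNQ1OT1 rose by 1.70 and NEAT1 by 0.93 in the soluble fraction, and KCNQ1OT1 by 1.88, MALAT1 by 1.15 and NEAT1 by 0.61 in the insoluble fraction. The part of nuclear RNA in the CLK1 difference was not tested. In bulk RNA, fewer cells with CLK1 mRNA and less of it per cell cannot be told apart.

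NaAsO2 alone lowered CLK1 and CLK4 in the insoluble fraction. CLK1 fell by 0.59 on the log2 scale (SE 0.13, adjusted p = 0.00125) and CLK4 fell by 1.12 (SE 0.2, adjusted p = 0.000151), in a comparison in which 21.8% of genes were called lower. Without replicate 3 of NaAsO2, the CLK4 difference was −0.87 (adjusted p = 0.000449). For CLK1, the fit of the compared groups alone gave a difference of −0.53 (adjusted p = 0.0752). Both genes had smaller soluble differences, −0.37 for CLK1 (SE 0.13, adjusted p = 0.0633) and −0.30 for CLK4 (SE 0.2, adjusted p = 0.321), and neither passed the threshold. CLK1 passed it there without replicate 2 of the Ctrl soluble fraction (−0.50, adjusted p = 0.0293), in the fit of the compared groups alone (−0.43, adjusted p = 0.000758), with DESeq2 (−0.36, adjusted p = 0.0456) and with scaling by library size alone (−0.56, adjusted p = 0.025).

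CLK4 was the member with the fewest counts, 32 to 153 exon counts in a library. Its exon level in the insoluble fraction was 12.2, 11.5 and 13.4 CPM in Ctrl, 6.19, 6.74 and 3.79 CPM after NaAsO2, 11.2, 11.5 and 10.7 CPM after RK-33 and 7.35, 8.77 and 7.16 CPM in Combo. The soluble libraries gave 13.6, 7.36 and 8.88 CPM in Ctrl, 9.03, 7.98 and 7.25 CPM after NaAsO2, 10.6, 10.7 and 9.88 CPM after RK-33 and 8.97, 7.91 and 8.37 CPM in Combo. Insoluble NaAsO2 and Combo libraries lay below all Ctrl and RK-33 libraries, whereas in the soluble fraction 1 Ctrl library was far above the other 2 and the Ctrl libraries overlapped with those of every treatment. Combo differed from NaAsO2 by 0.45 in the insoluble fraction (SE 0.2, adjusted p = 0.124).

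CLK2 and CLK3 were higher after NaAsO2 in the soluble fraction. For CLK2, which is also known as a regulator of metabolic genes in liver, the soluble values were 18.2, 18.8 and 19.5 CPM in Ctrl, 25.5, 27.1 and 27.1 CPM after NaAsO2, 22.6, 24 and 21.2 CPM after RK-33 and 25.4, 31.4 and 28.8 CPM in Combo. For CLK3 they were 42.5, 39.4 and 36.3 CPM in Ctrl, 50.9, 57.2 and 54.4 CPM after NaAsO2, 52.0, 49.9 and 55.1 CPM after RK-33 and 46.9, 44.2 and 42.7 CPM in Combo. The NaAsO2 libraries were above all Ctrl libraries for both genes. CLK2 rose by 0.50 (SE 0.15, adjusted p = 0.0321) and CLK3 by 0.46 (SE 0.14, adjusted p = 0.0388), with 6.31% of genes called higher. Neither call held when any of the 6 libraries was left out, with values of 0.42 to 0.53 for CLK2 and 0.39 to 0.51 for CLK3 and adjusted p-values of 0.0631 to 0.138 and 0.0638 to 0.154. With scaling by library size alone, which moved the median of all genes from 0.03 to −0.15, the differences were 0.31 (adjusted p = 0.305) and 0.27 (adjusted p = 0.11), and without the filter on low counts the adjusted p-values were 0.131 and 0.137.

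In the insoluble fraction, CLK2 was at 22.5, 25.2 and 19.1 CPM in Ctrl, 21.9, 24.4 and 14.6 CPM after NaAsO2, 22.2, 22.2 and 25.1 CPM after RK-33 and 22.3, 22.2 and 19 CPM in Combo. CLK3 was at 36.7, 36.2 and 36.8 CPM in Ctrl, 30.3, 34.3 and 52.3 CPM after NaAsO2, 36.2, 41.8 and 34.4 CPM after RK-33 and 32.2, 35.7 and 38.6 CPM in Combo. Each treatment overlapped with Ctrl for both genes, and replicate 3 of the NaAsO2 insoluble fraction held the lowest CLK2 and the highest CLK3 value. NaAsO2 differed from Ctrl by −0.12 for CLK2 (SE 0.15, adjusted p = 0.531) and by 0.08 for CLK3 (SE 0.15, adjusted p = 0.663).

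RK-33 without NaAsO2 gave no call for a member in the exon level, the intron level or the ratio. In the soluble and insoluble fractions, 5.33% and 13.9% of genes were called by exon level, 1.07% and 2.8% by intron level and 0.13% and 1.74% by ratio. The 95% intervals of the exon differences were −0.08 to 0.43 for CLK1, −0.03 to 0.56 for CLK2, 0.12 to 0.69 for CLK3 and −0.31 to 0.44 for CLK4 in the soluble fraction. For the insoluble fraction they were 0.02 to 0.53, −0.24 to 0.35, −0.25 to 0.32 and −0.53 to 0.22. For CLK1, the intron level in the soluble fraction was 0.66 higher than in Ctrl (SE 0.19, adjusted p = 0.0914), and this passed the threshold with DESeq2 (adjusted p = 0.0368).

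Whether NaAsO2 acted differently once RK-33 was present was asked after the data had been seen. The exon difference of Combo from RK-33 exceeded that of NaAsO2 from Ctrl for CLK1 by 1.00 in the soluble fraction (SE 0.18, adjusted p = 0.00477, with 1.58% of genes called higher) and by 0.93 in the insoluble fraction (SE 0.18, adjusted p = 0.00233, with 6.22% called higher). Both calls held with each library left out. In the intron level the same contrast was 0.91 in the soluble fraction (SE 0.26, adjusted p = 0.0483, 2.95% called higher) and 1.28 in the insoluble fraction (SE 0.26, adjusted p = 0.00174, 5.56% called higher). With each of 12 libraries left out in turn, the soluble call held in 2 fits, at 0.65 to 1.07 over all 12 (0.92, adjusted p = 0.079, without replicate 3 of RK-33), and the insoluble call in 12. For CLK2, CLK3 and CLK4 this contrast was not called in either fraction, although for CLK3 in the soluble fraction it was with DESeq2 (−0.71, adjusted p = 0.0218) and with edgeR's likelihood ratio test (−0.69, adjusted p = 0.0453).

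**Figure D3:**
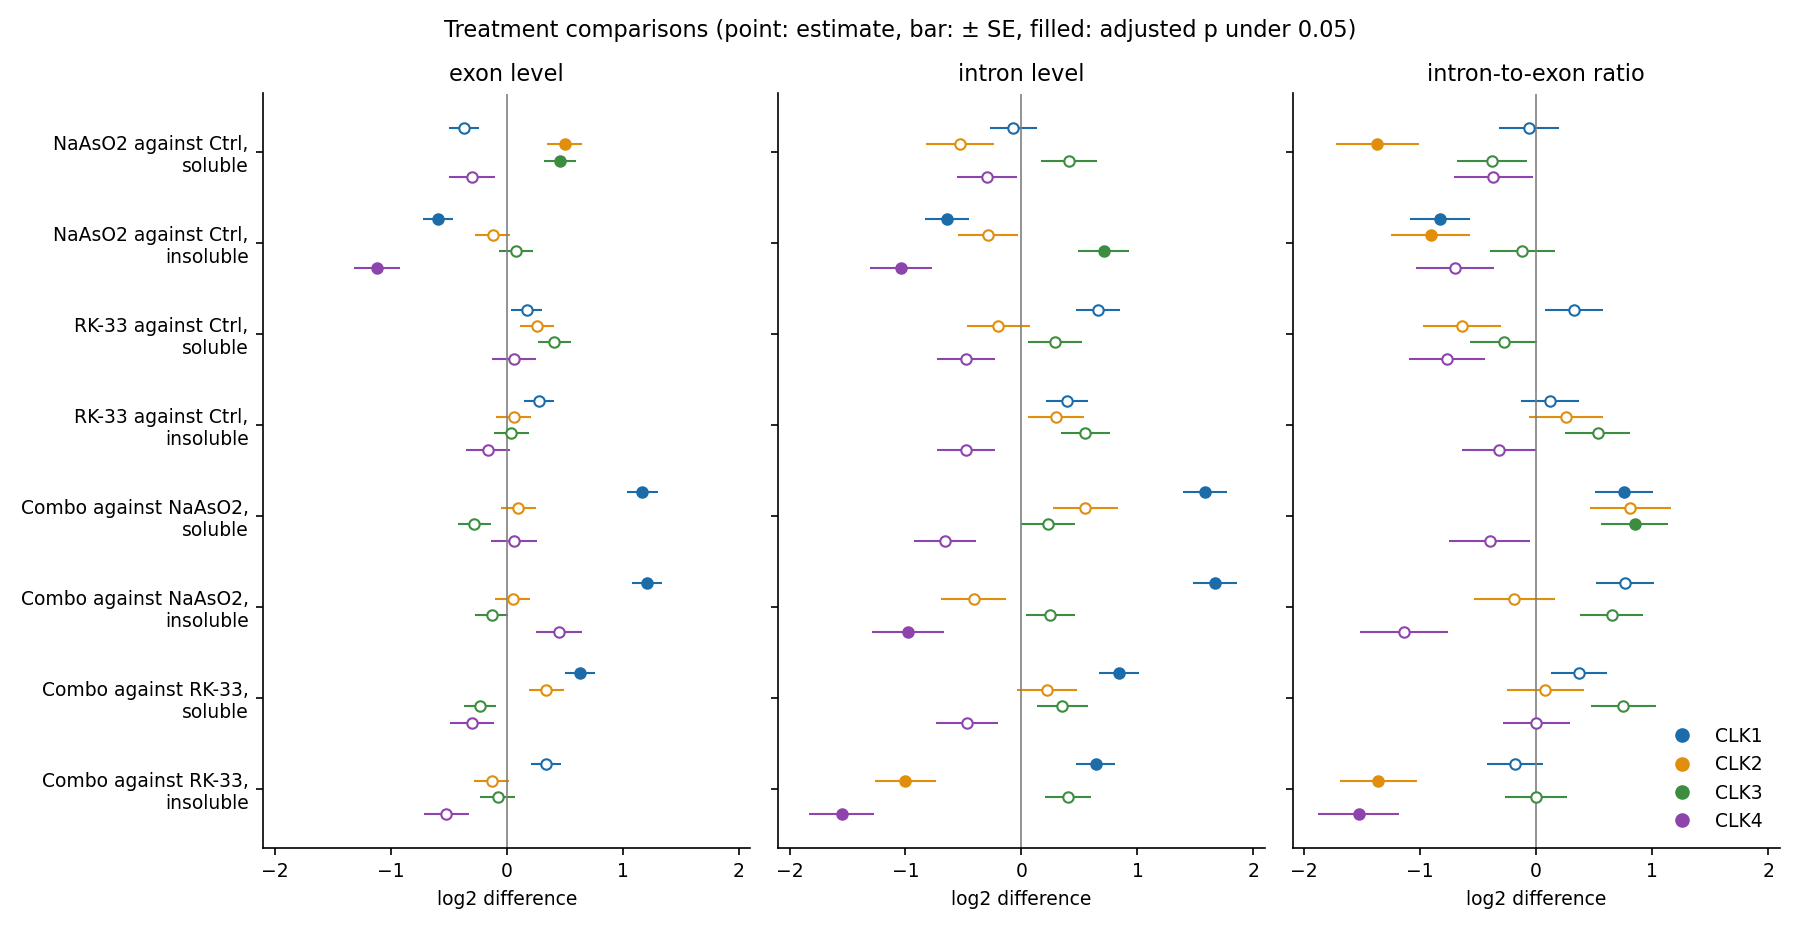
Points give the log2 difference between treatments for each CLK gene in the exon level, the intron level and the intron-to-exon ratio, with bars of ± SE, and filled points have an adjusted p under 0.05. For Combo against NaAsO2 the CLK1 points lie at 1.17 and 1.21 in the exon level and at 1.58 and 1.67 in the intron level, while all points for RK-33 against Ctrl are open.

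The intron level of CLK1, from the introns that are not annotated as part of any exon, moved with its exon level between Combo and NaAsO2. In the soluble fraction it was 24.7, 21.2 and 30 CPM in Ctrl, 27.2, 16.9 and 29.1 CPM after NaAsO2, 40.7, 38.9 and 40.8 CPM after RK-33 and 75.7, 77.6 and 62.9 CPM in Combo, on a scale of TMM-normalised CPM of the intron table. The insoluble values were 27.7, 29.7 and 21.9 CPM in Ctrl, 17.9, 15 and 17.8 CPM after NaAsO2, 32.4, 32.1 and 39.4 CPM after RK-33 and 55.7, 49.1 and 57.1 CPM in Combo. Combo was above every other group in both fractions, and the NaAsO2 and Ctrl libraries overlapped in the soluble fraction only. Combo exceeded NaAsO2 2.98-fold in the soluble fraction (1.58, SE 0.19, adjusted p = 4.63e-07, with 9.54% of genes called higher by intron level) and 3.18-fold in the insoluble fraction (1.67, SE 0.19, adjusted p = 1.36e-07, with 13.1% called higher). Combo also exceeded RK-33 by 0.84 in the soluble fraction (SE 0.17, adjusted p = 0.000471, 16.5% called higher) and by 0.64 in the insoluble fraction (SE 0.17, adjusted p = 0.00456, 15.6% called higher), and the latter was 0.33 (adjusted p = 0.268) when introns were scaled by the exon factors.

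After NaAsO2 the intron level in the insoluble fraction fell by 0.64 for CLK1 (SE 0.19, adjusted p = 0.0122) and fell by 1.04 for CLK4 (SE 0.27, adjusted p = 0.00442), with 12.6% of genes called lower by intron level, and that of CLK3 rose by 0.71 (SE 0.22, adjusted p = 0.0152), with 18.7% called higher. The CLK1 call was lost without replicate 2 of the Ctrl insoluble fraction (−0.55, adjusted p = 0.059). The CLK3 call was lost without replicate 3 of NaAsO2 (0.54, adjusted p = 0.0794), without replicate 1 or 3 of Ctrl (0.67 and 0.57, adjusted p = 0.0565 and 0.0838), and when introns were scaled by the exon factors (0.20, adjusted p = 0.571). In the fit of the compared groups alone, none of the 3 passed, with adjusted p-values of 0.0812 for CLK1, 0.053 for CLK4 and 0.134 for CLK3.

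The CLK4 intron level fell further in Combo. Its values in the insoluble fraction were 16.2, 23.6 and 19.4 CPM in Ctrl, 6.78, 9.61 and 13 CPM after NaAsO2, 15.4, 14.2 and 12.7 CPM after RK-33 and 2.97, 5.95 and 5.61 CPM in Combo. The soluble values were 27.4, 24.2 and 22.1 CPM in Ctrl, 21.3, 16.5 and 22.6 CPM after NaAsO2, 12.9, 20.8 and 19.3 CPM after RK-33 and 10.4, 18.2 and 10.1 CPM in Combo. The insoluble Combo libraries were below all other libraries. Combo differed from RK-33 by −1.55 in this fraction (SE 0.28, adjusted p = 0.000102, with 14.2% of genes called lower by intron level) and from NaAsO2 by −0.98 (SE 0.31, adjusted p = 0.0188, with 13.5% called lower). The latter was lost without replicate 3 of NaAsO2 (−0.73, adjusted p = 0.109), without replicate 1 of Combo (−0.72, adjusted p = 0.128), in the fit of the compared groups alone (adjusted p = 0.172) and with the exon factors (−0.82, adjusted p = 0.0679). In the same Combo against RK-33 comparison, the CLK2 intron level fell by 1.00 (SE 0.26, adjusted p = 0.0032).

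The intron-to-exon ratio of a gene is its intron count divided by its exon count in the same library. CLK4 had the highest ratios, 0.143 to 1.09 over the 24 libraries, CLK1 followed with 0.13 to 0.412, CLK2 ranged from 0.0619 to 0.389 and CLK3 from 0.0659 to 0.275. Counts per intron base over counts per exon base gave 0.221 ± 0.059 for CLK1, 0.209 ± 0.091 for CLK4, 0.121 ± 0.0555 for CLK3 and 0.0627 ± 0.0298 for CLK2 (mean ± SD, n = 24). Canonical exon bases were 36.1% of the exon entry in CLK1, 31.6% in CLK4, 9.4% in CLK3 and 58.9% in CLK2. Because these shares differ, no order of the members in retained introns is read from either ratio. Each ratio rests on few intron counts, 42 to 276 for CLK1, 14 to 94 for CLK2, 28 to 125 for CLK3 and 14 to 105 for CLK4, and its counting error is large. The CLK4 ratio of 1.09 came from 35 intron and 32 exon counts and has a 95% interval of 0.658 to 1.82, which covers counting error only.

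The CLK1 ratio in the soluble fraction was 0.208, 0.172 and 0.275 in Ctrl, 0.235, 0.157 and 0.236 after NaAsO2, 0.277, 0.26 and 0.274 after RK-33 and 0.331, 0.356 and 0.366 in Combo. Insoluble libraries were at 0.36, 0.373 and 0.257 in Ctrl, 0.202, 0.13 and 0.23 after NaAsO2, 0.303, 0.354 and 0.412 after RK-33 and 0.343, 0.274 and 0.323 in Combo. The soluble Combo libraries were above all other soluble libraries, and the insoluble NaAsO2 libraries were below all other insoluble libraries. Compared with Ctrl, the ratio fell by 0.83 on the log2 scale after NaAsO2 in the insoluble fraction (SE 0.26, adjusted p = 0.00982). In this comparison 45.2% of 12266 genes were called lower and the median over all genes was −0.69. With TMM factors computed separately for the exon and the intron table, which moved the median to 0.1 and the calls to 19.1% higher and 16.1% lower, the CLK1 difference was −0.06 (adjusted p = 0.877). Under that scaling the CLK3 difference turned from −0.12 (adjusted p = 0.757) to 0.66 (adjusted p = 0.0156). The CLK1 call was also lost without replicate 2 of NaAsO2 (−0.60, adjusted p = 0.0848).

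In the soluble fraction, the CLK1 ratio was 0.76 higher in Combo than after NaAsO2 (SE 0.25, adjusted p = 0.0461) and the CLK3 ratio 0.85 higher (SE 0.29, adjusted p = 0.0468). Of all genes, 11.9% were called higher and the median was 0.33. The CLK1 call was lost with any of the 6 libraries left out (0.57 to 0.87, adjusted p = 0.0553 to 0.176), and the CLK3 call without any of the 3 NaAsO2 libraries or without replicate 2 or 3 of Combo (0.75 to 0.96, adjusted p = 0.0743 to 0.204). With separate TMM factors, under which 9.02% of genes were higher and 4.96% lower with a median of −0.01, the differences were 0.41 (adjusted p = 0.266) and 0.51 (adjusted p = 0.116). In the insoluble fraction, where 9.46% of genes were called higher, the CLK1 ratio differed by 0.77 (SE 0.25, adjusted p = 0.0502), and without replicate 3 of NaAsO2 by 0.92 (adjusted p = 0.016).

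**Figure D4:**
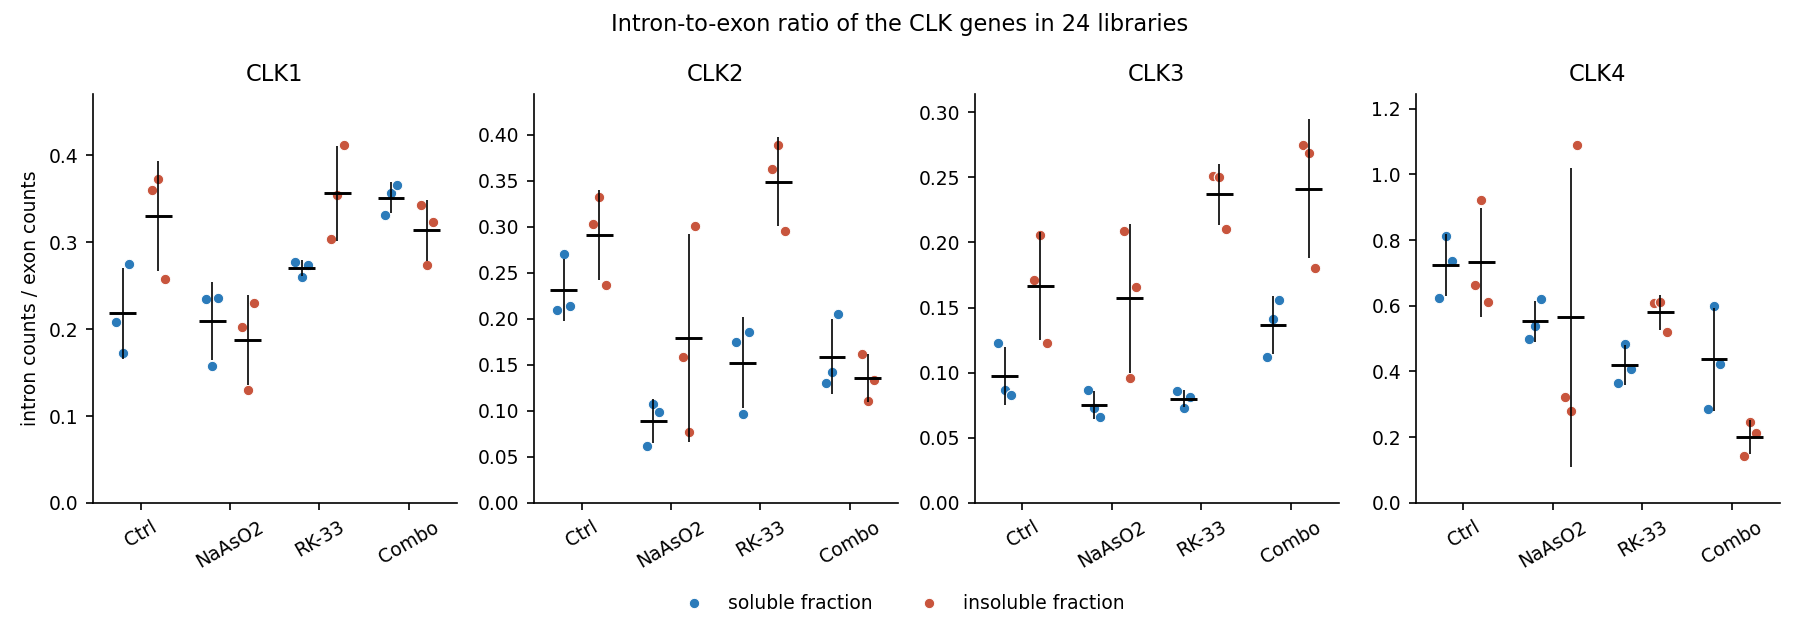
Each point is the intron-to-exon ratio of counts of a CLK gene in 1 library, by treatment and fraction, with horizontal and vertical bars for the mean and SD of 3 libraries, on linear axes from 0. The CLK4 ratio reaches 1.09 in replicate 3 of the NaAsO2 insoluble group and lies at 0.143 to 0.246 in the Combo insoluble group, and the CLK3 ratios of the RK-33 insoluble group, 0.21 to 0.251, are above those of its soluble group, 0.0728 to 0.0857.

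The CLK2 ratio was lower after NaAsO2 in both fractions. Its soluble values were 0.209, 0.27 and 0.214 in Ctrl, 0.0619, 0.107 and 0.0983 after NaAsO2, 0.175, 0.0962 and 0.186 after RK-33 and 0.13, 0.142 and 0.205 in Combo. Its insoluble values were 0.303, 0.332 and 0.237 in Ctrl, 0.159, 0.0776 and 0.301 after NaAsO2, 0.363, 0.389 and 0.295 after RK-33 and 0.162, 0.111 and 0.134 in Combo. The NaAsO2 and Ctrl libraries did not overlap in the soluble fraction but did in the insoluble fraction. The differences were −1.37 in the soluble fraction (SE 0.36, adjusted p = 0.0103, with 16.2% of genes called lower and a median of −0.38) and −0.91 in the insoluble fraction (SE 0.34, adjusted p = 0.0285, with 45.2% of genes called lower and a median of −0.69). The soluble call was lost without replicate 1 of NaAsO2 (−1.17, adjusted p = 0.0581) and held with separate TMM factors (−1.02, adjusted p = 0.0227), under which 10.9% of genes were called lower and 7.39% higher. The insoluble call was lost with separate TMM factors (−0.14, adjusted p = 0.742), without replicate 1 or 2 of NaAsO2 (−0.94 and −0.45, adjusted p = 0.0522 and 0.301) and without replicate 1 or 2 of Ctrl (−0.88 and −0.80, adjusted p = 0.0783 and 0.0998). Without replicate 3 of NaAsO2 it was −1.34 (adjusted p = 0.000776).

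The CLK4 ratio in the insoluble fraction was 0.664, 0.921 and 0.612 in Ctrl, 0.322, 0.281 and 1.09 after NaAsO2, 0.608, 0.612 and 0.519 after RK-33 and 0.143, 0.246 and 0.212 in Combo. Soluble libraries were at 0.623, 0.812 and 0.735 in Ctrl, 0.5, 0.537 and 0.62 after NaAsO2, 0.364, 0.484 and 0.409 after RK-33 and 0.286, 0.6 and 0.424 in Combo. The insoluble Combo libraries lay below all others, and of the NaAsO2 libraries 2 were below and 1 above the Ctrl libraries. In the insoluble fraction of Combo, the ratio of CLK4 fell by 1.53 against RK-33 (SE 0.35, adjusted p = 0.00133) and that of CLK2 fell by 1.36 (SE 0.33, adjusted p = 0.00207), in a comparison with 32.2% of genes called lower and a median of −0.49. Both calls held with separate TMM factors, under which 18.6% of genes were called lower, at −1.04 (adjusted p = 0.0236) for CLK4 and −0.88 (adjusted p = 0.0169) for CLK2. NaAsO2 differed from Ctrl by −0.70 (SE 0.34, adjusted p = 0.0943) for CLK4, and by −1.26 (adjusted p = 0.000974) without replicate 3 of NaAsO2. Combo differed from NaAsO2 by −1.14 for CLK4 (SE 0.38, adjusted p = 0.0525), and by −1.16 (adjusted p = 0.0437) with the replicate number as a block, where 0.62% of genes were called lower without the block. With each of the 6 libraries left out in turn, the difference ranged from −1.49 to −0.58 (adjusted p = 0.0214 to 0.27, same quasi-likelihood test).

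Between fractions, CLK3 was the member whose exon level differed. Averaged over the 4 treatments, the CLK3 exon level was lower in the insoluble than in the soluble fraction (log2 difference −0.35, SE 0.07, adjusted p = 0.000147, with 38.2% of genes called lower), while CLK1 at 0.07, CLK2 at −0.13 and CLK4 at −0.05 were not called. CLK3 was lower in the insoluble fraction in 11 of 12 pairs of libraries with the same treatment and number, and CLK1 was higher there in 10 of 12. By treatment, the CLK3 difference was −0.11 in Ctrl (SE 0.15, adjusted p = 0.553, edgeR quasi-likelihood test), where the libraries of the fractions overlapped. It was −0.48 after NaAsO2 (adjusted p = 0.00683) and −0.48 after RK-33 (adjusted p = 0.00672), where 29.7% and 30.4% of genes were called lower. The NaAsO2 call was lost without replicate 1 of its insoluble fraction (−0.25, adjusted p = 0.123) and in the fit of the compared groups alone (−0.41, adjusted p = 0.178). The CLK2 difference was −0.43 in Combo (adjusted p = 0.0181, 28% called lower), a call lost without replicate 2 of the soluble (−0.38, adjusted p = 0.0821) or replicate 3 of the insoluble libraries (−0.41, adjusted p = 0.0549). Without the latter library CLK3 was at −0.45 in Combo (adjusted p = 0.021), against −0.33 (adjusted p = 0.0598) with it.

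After NaAsO2, CLK2 and CLK4 were lower in the insoluble fraction, at −0.38 (adjusted p = 0.0351) and −0.51 (adjusted p = 0.0371). Without replicate 3 of the NaAsO2 insoluble fraction these differences were −0.16 (adjusted p = 0.293) and −0.28 (adjusted p = 0.215). The CLK2 call was also lost without insoluble replicate 1 (−0.32) or soluble replicate 2 or 3 (−0.37 each), and the CLK4 call without insoluble replicate 1 (−0.47) or soluble replicate 1 or 2 (−0.43 and −0.52). The fraction difference after NaAsO2 minus that in Ctrl was −0.62 for CLK2 (SE 0.21, adjusted p = 0.0396) and −0.82 for CLK4 (SE 0.28, adjusted p = 0.0373), with 11.4% of genes called lower. Without replicate 3 of the NaAsO2 insoluble fraction these were −0.36 (adjusted p = 0.136) and −0.55 (adjusted p = 0.107), and with each of 12 libraries left out in turn the calls held in 1 fit for CLK2 and in 4 fits for CLK4. With the same-numbered libraries of both fractions as a block, CLK2 was at −0.64 (adjusted p = 0.0665). For CLK3 the contrast was −0.37 (adjusted p = 0.198), and −0.55 (adjusted p = 0.00621) without replicate 3 of the NaAsO2 insoluble fraction.

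The CLK3 ratio was higher in the insoluble fraction under each treatment. In the soluble fraction it was 0.123, 0.0864 and 0.0826 in Ctrl, 0.0865, 0.0732 and 0.0659 after NaAsO2, 0.0857, 0.0728 and 0.0816 after RK-33 and 0.112, 0.141 and 0.156 in Combo. The insoluble values were 0.171, 0.206 and 0.123 in Ctrl, 0.209, 0.0961 and 0.166 after NaAsO2, 0.251, 0.25 and 0.21 after RK-33 and 0.275, 0.269 and 0.18 in Combo. It was higher in the insoluble library in 12 of 12 same-numbered pairs, against 9 of 12 for CLK2 and 6 of 12 for CLK1 and for CLK4. Averaged over treatments, the CLK3 ratio was 2.06-fold higher (1.04, SE 0.14, adjusted p = 1.91e-07), with 52.7% of genes called higher and a median of 0.42. With separate TMM factors, which moved the median to −0.08 and the calls to 29.2% higher and 35.7% lower, the CLK3 difference was 0.54 (adjusted p = 5.9e-05).

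The other members depended on the scaling. The CLK2 ratio was 0.53 higher in the insoluble fraction (SE 0.17, adjusted p = 0.00765) and 0.03 higher with separate TMM factors (adjusted p = 0.868). CLK1 was at 0.16 (SE 0.13, adjusted p = 0.268) and reversed to −0.34 (adjusted p = 0.0111), and CLK4 moved from −0.22 (SE 0.17, adjusted p = 0.261) to −0.72 (adjusted p = 0.000522). Without replicate 3 of the NaAsO2 insoluble fraction, CLK4 was at −0.36 (adjusted p = 0.0256) under the first scaling. By treatment, the CLK3 ratio was higher in the insoluble fraction by 0.76 in Ctrl (adjusted p = 0.0356), 1.02 after NaAsO2 (adjusted p = 0.00698), 1.57 after RK-33 (adjusted p = 3.6e-05) and 0.82 in Combo (adjusted p = 0.0275), where 37.9%, 23.9%, 51.3% and 14.6% of genes were called higher. The Ctrl call was lost with separate TMM factors (0.07, adjusted p = 0.821). The Ctrl call was also lost without insoluble replicate 1 or 2 or soluble replicate 2 or 3, at 0.59 to 0.73, and the Combo call without replicate 1 or 2 of either fraction, at 0.68 to 0.85. With the same-numbered libraries of both fractions as a block, both calls were lost (0.77, adjusted p = 0.0644, in Ctrl and 0.82, adjusted p = 0.0654, in Combo). The NaAsO2 call was lost without replicate 1 of the insoluble fraction (0.77, adjusted p = 0.0591). The CLK2 ratio was higher in the insoluble fraction after RK-33 by 1.23 (SE 0.33, adjusted p = 0.00251), and by 0.37 with separate TMM factors (adjusted p = 0.29). In Combo, CLK4 differed by −1.06 (adjusted p = 0.0341), with 9.33% called lower, and this was lost without insoluble replicate 1 or 3 or soluble replicate 2 or 3, at −1.10 to −0.79. After NaAsO2, CLK4 differed by −0.31 (adjusted p = 0.53), and by −0.87 (adjusted p = 0.0383) without replicate 3 of the insoluble fraction.

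**Figure D5:**
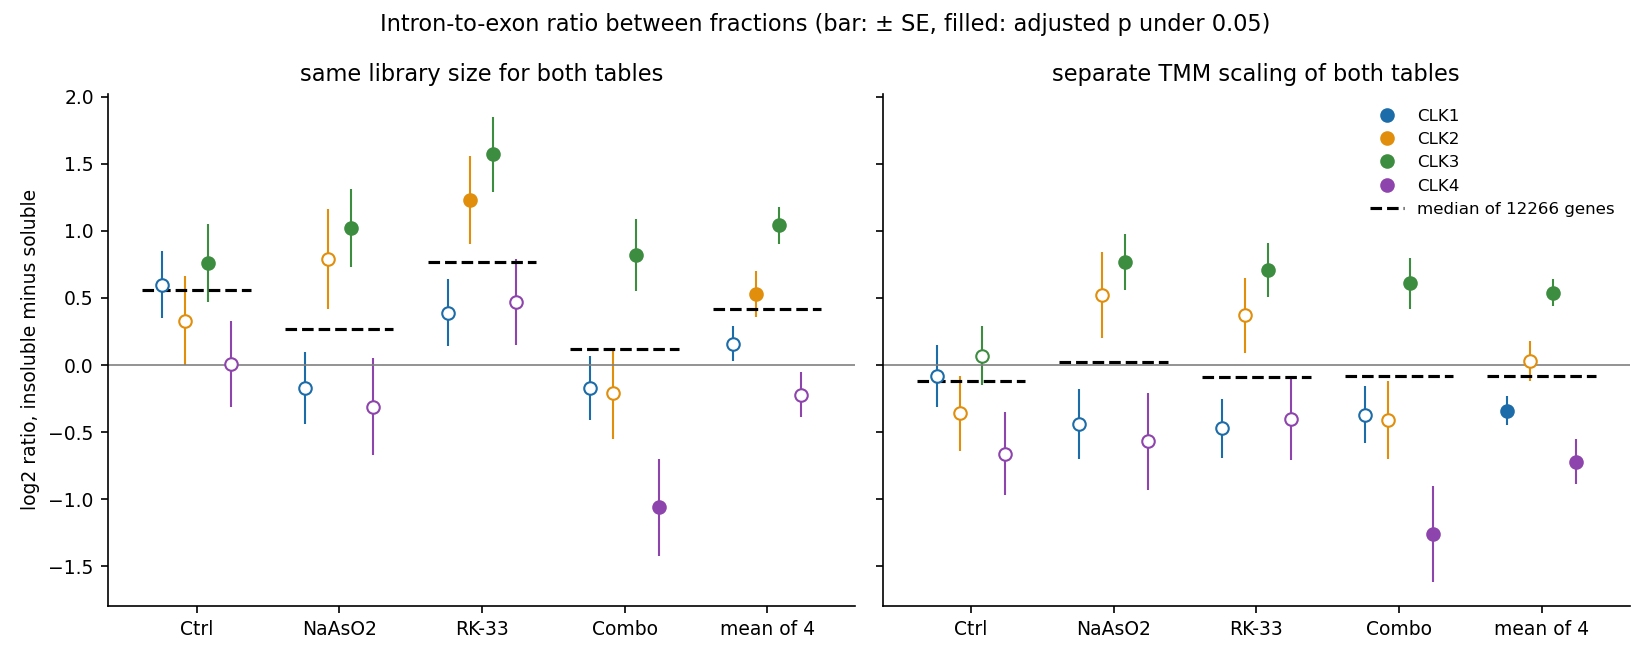
Points give the log2 difference of the intron-to-exon ratio between the insoluble and the soluble fraction for each CLK gene, by treatment and averaged over treatments, with bars of ± SE, filled where the adjusted p is under 0.05, and the dashed line is the median of 12266 genes. The left panel uses the same library size for both tables and the right panel separate TMM factors, under which the median of the averaged difference moves from 0.42 to −0.08, CLK3 stays above it at 0.54 and CLK1 crosses 0.

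Intron levels were compared between fractions in the same way. Averaged over treatments, the intron level was lower in the insoluble fraction for CLK4 (−0.77, SE 0.14, adjusted p = 1.49e-05) and for CLK1 (−0.27, SE 0.09, adjusted p = 0.0122), with 33.8% of genes called lower by intron level, while CLK3 at 0.18 (SE 0.11, adjusted p = 0.158) and CLK2 at −0.11 (SE 0.13, adjusted p = 0.479) were not called. By treatment, CLK4 differed by −1.06 after NaAsO2 (SE 0.28, adjusted p = 0.00731, 10.9% called lower) and by −1.39 in Combo (SE 0.3, adjusted p = 0.000895, 16.3% called lower), and CLK2 by −0.84 in Combo (SE 0.26, adjusted p = 0.0178). The NaAsO2 call was lost without insoluble replicate 1 (−0.83, adjusted p = 0.0521), and the CLK2 call without replicate 2 of either fraction (−0.68 and −0.78, adjusted p = 0.1 and 0.0631). CLK4 intron levels were higher in the insoluble library in 1 of 12 same-numbered pairs, and CLK3 intron levels in 10 of 12. Scaled by the exon factors and the exon plus intron totals, the CLK1 intron difference was 0.04 (adjusted p = 0.799) and that of CLK3 was 0.49 (adjusted p = 0.00178).

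Genes that act with the CLKs were described by lists. The list calls come from the fit of all 8 groups and were not counted in fits of the compared groups alone. Over all genes, such fits gave fewer exon calls in the insoluble fraction. They gave 19 in place of 2435 for Combo against NaAsO2 and 1607 in place of 7606 for NaAsO2 against Ctrl. Of the SR proteins and TRA2 proteins, the substrates of the CLKs, 13 were tested by exon level. Averaged over treatments, 11 were lower and 0 higher in the insoluble fraction (median −0.64, against 0.01 over all genes, of which 38.2% were lower), among them SRSF7 (−0.89), SRSF6 (−0.98) and TRA2A (−0.69). After NaAsO2, 8 of 13 were lower and 2 higher in the insoluble fraction (median −0.70, against −0.02 over all genes, of which 21.8% were lower and 21.2% higher), with SRSF5 at −0.68 and SRSF8 at 1.02, while in the soluble fraction 0 were lower and 1, SRSF7, was higher (0.35, adjusted p = 0.0401). In Combo against NaAsO2, 6 of 13 rose in the insoluble fraction, against 6.88% of all genes, including TRA2B by 0.84 (adjusted p = 1.8e-05) and SRSF3 by 0.79 (adjusted p = 0.00139), and 0 were called in the soluble fraction. With library size alone SRSF7 lost its soluble call after NaAsO2 and 2 genes were called higher in the soluble fraction of Combo, and in the insoluble fraction 6 rose and 1 fell with RLE factors or library size alone.

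The intron-to-exon ratio could be tested for 9 SR and TRA2 genes. All 9 had a higher ratio in the insoluble fraction (median 0.74, against 0.42 over all genes, of which 52.7% were higher), as had 4 of 9 with separate TMM factors (median 0.24, against −0.08), with SRSF7 at 1.2 and SRSF5 at 0.89. Combo was higher than NaAsO2 in 4 of 9 in the soluble fraction, against 11.9% of all genes, including SRSF7 by 1.48 (adjusted p = 0.000148) and SRSF3 by 1.47 (adjusted p = 0.00153), and in 3 of 9 in the insoluble fraction, against 9.46%. NaAsO2 lowered it in 5 of 9 genes in each fraction, against 16.2% of all genes in the soluble and 45.2% in the insoluble libraries, with SRSF9 at −1.33 (soluble) and −2.08 (insoluble), and with separate TMM factors it was lower in 3 genes in the soluble fraction and lower in 1 and higher in 1 in the insoluble fraction.

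The list of other genes known for introns detained in the nucleus had 17 genes. NaAsO2 lowered the exon level of 12 of 17 in the insoluble fraction and raised 0 (median −0.61, against −0.02 over all genes, of which 21.8% were lower), including TAF1D at −1.54 (adjusted p = 6.88e-09), LUC7L3 at −1.18 (adjusted p = 5.46e-06) and HNRNPH1 at −0.63 (adjusted p = 1.37e-05), and with RLE factors 10 and with library size alone 13 of 17 were lower. In Combo against NaAsO2, 7 of 17 rose and 1 fell in the insoluble fraction, where 6.88% of all genes rose and 6.9% fell, and 3 rose in the soluble fraction, against 4.79%. MAT2A, which makes S-adenosylmethionine, rose by 0.84 (soluble) and 1.12 (insoluble) (adjusted p = 5.5e-05 and 1.21e-06), and CCNL1, a cyclin linked to splicing, by 0.89 and 1.22 (adjusted p = 0.00167 and 6.44e-05).

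Kinases other than CLKs and phosphatases that act on SR proteins were 18 genes. After NaAsO2, 5 had a higher and 3 a lower level in the insoluble fraction, with DYRK1A at 0.67 (adjusted p = 0.000547), CDK13 at 0.54 and DYRK1B at 0.62, and 0 were called in the soluble fraction. With library size alone, the counts were 3 higher and 2 lower (insoluble) and 0 higher and 2 lower (soluble), and with RLE factors 1 was higher in the soluble fraction. The share called in the insoluble fraction was 44.4%, against 43.1% of all genes. In Combo against NaAsO2, 2 of 18 were lower in the insoluble fraction, DYRK1B at −0.93 (adjusted p = 0.00159) and CDK11B at −0.43 (adjusted p = 0.0475), against 3 with RLE factors and 1 with library size alone, and 0 were called in the soluble fraction. Averaged over treatments, 6 had a higher and 8 a lower level in the insoluble fraction, a share of 77.8% against 76.8% of all genes.

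Across the 24 libraries the exon level most like that of CLK1 was that of CCNL1, with a Pearson r of 0.928, followed by ENSG00000226380 at 0.927 and EIF4A2 at 0.904, of 10260 genes that averaged 10 CPM or more. For CLK2 the nearest were MSTO1 at 0.768, ZNF480 at 0.765 and RABGAP1L at 0.755, and for CLK3 MIIP at 0.915, FOXRED1 at 0.913 and NAGK at 0.9. CLK4, below 10 CPM on average, was left out. The members were little alike in exon level, with r of 0.24 for CLK1 and CLK2, −0.24 for CLK1 and CLK3 and 0.13 for CLK2 and CLK3. The log2 ratios of the members had r of 0.53 for CLK1 and CLK3, 0.5 for CLK2 and CLK3, 0.5 for CLK2 and CLK4, 0.44 for CLK1 and CLK2, −0.04 for CLK1 and CLK4 and −0.22 for CLK3 and CLK4. The ratio nearest to that of CLK1 was UGCG at 0.88, to CLK2 PATL1 at 0.899, to CLK3 AKR1C3 at 0.941 and to CLK4 SUGP2 at 0.915. The 24 values share libraries, fractions and treatments, so these coefficients are a description and the fraction itself adds to them.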

How the data were processed

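The 24 libraries were rRNA-depleted, directional and read from both ends. The authors aligned reads to GRCh38.p13 with STAR 2.7.2b, used SAMtools 1.2 and counted with featureCounts of the Subread package, and they deposited raw counts of uniquely mapped fragments per gene for exons and for introns, the introns being genes minus merged exons. No normalization was applied to the deposited counts. The file headers give counting of read pairs without regard to strand, with a minimum overlap asked for introns and not for exons. Counts of circular and linear junctions were not used here. Groups followed the deposited labels. Another marker listed for the cell line is not reported here.

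Gene structures and splice sites were read from the same assembly with GENCODE release 44, an annotation later than that of the authors; the lengths of the 4 exon and 4 intron entries equalled those in the tables. Genes that averaged 1 CPM or more (17666 for exons, 17406 for introns) were scaled with TMM, and the quasi-likelihood test of edgeR was run in 1 fit of 8 groups. The intron-to-exon ratio was tested for 12266 genes that averaged 10 counts or more in both tables, in a quasi-likelihood fit with a term for each library and the same library size for its exon and intron counts. P-values were adjusted with the Benjamini-Hochberg method over all genes tested, and a call is an adjusted p under 0.05. The study's methods name a likelihood ratio test (glmLRT), here an alternative. Intervals of single ratios are 95% intervals of counting error. Precision is set by the counts per library, which are given with the ratios.

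The members, the gene lists and the tests were chosen with earlier results of these data known. Of 17 contrasts, 2 (the NaAsO2 effect with against without RK-33) were chosen after seeing the data. Listed genes are named by the 3 smallest adjusted p-values per list and comparison, and like genes by the 3 highest correlations. The alternatives were RLE factors, library size alone, separate TMM factors, no filter, a fold threshold, glmLRT, DESeq2, limma on log2 ratios with pseudocounts of 0.5 and 5, the compared groups alone, replicate blocks, and each library left out. Same-numbered libraries of Combo and NaAsO2 in the insoluble fraction deviated together (correlations of 0.665, 0.677 and 0.821). So did NaAsO2 replicate 1 with Combo replicate 2 (0.813) and NaAsO2 replicate 2 with Combo replicate 1 (0.51), while replicate 3 of both groups stood apart. These correlations therefore do not show pairing by number. Same-numbered libraries of the other pairs of groups did not deviate together in all 3 numbers. Blocked values are given where a call changed. The tests were tried on simulated data first. The statistics used edgeR 4.0.16, limma 3.58.1 and DESeq2 1.42.0 under R 4.3.3. Tables were handled by pandas 2.3.3 and numpy 2.4.6, and plots drawn by matplotlib 3.10.9, under Python 3.11.15 (scipy 1.17.1 gave the intervals).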

Additional observations from a re-analysis of the deposited data

Results flagged for a closer look

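Each of the following differed between conditions by a test of the difference itself, and none was weighed further. The exon level of CLK2 and CLK4 between fractions changed with NaAsO2 by −0.62 and −0.82 on the log2 scale (adjusted p = 0.0396 and 0.0373, edgeR quasi-likelihood test). With 1 of 12 libraries left out, the values were −0.77 to −0.36 for CLK2, called in 1 of 12 fits, and −1.09 to −0.49 for CLK4, called in 4 of 12.

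The NaAsO2 effect on the CLK1 exon level was higher with than without RK-33 by 1.00 (soluble) and 0.93 (insoluble) (adjusted p = 0.00477 and 0.00233). With 1 library left out these were 0.89 to 1.13 and 0.78 to 1.00, called in 12 of 12 fits each. The same contrast in the CLK1 intron level was 0.91 in the soluble fraction (adjusted p = 0.0483), called in 2 of 12 such fits, and 1.28 in the insoluble fraction (adjusted p = 0.00174), called in 12 of 12. Both contrasts, in the soluble and the insoluble libraries, were chosen after seeing the data.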

How the results depend on the processing

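Over the 4 CLK genes and 15 planned contrasts, each readout had 15 calls. The share of all genes called differed widely between contrasts. In exon level, for example, 2.9% were higher in Combo against RK-33 (soluble) and 38.2% lower in the averaged insoluble fraction. The counts below therefore describe the settings and are not a result about the CLK genes. The exon calls numbered 3 when a log2 fold change of 1 or more in size was also asked and 9 without the filter on low counts, where the ratio calls also numbered 9. Of 1728 values with 1 library left out, 1615 kept their side of the threshold, 91 lost and 22 gained a call.

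Fitted with the compared groups alone, which leaves fewer residual degrees of freedom, the CLK1 exon level gave 1.22 (adjusted p = 0.0814) for Combo against NaAsO2 and −0.53 (0.0752) for NaAsO2 against Ctrl in the insoluble fraction, and −0.43 (0.000758) for NaAsO2 against Ctrl in the soluble fraction, and CLK3 gave −0.23 (0.0284) for Combo against NaAsO2, soluble. The ratio of CLK1 was 0.76 (0.0591) for Combo against NaAsO2, soluble, and −0.83 (0.0845) for NaAsO2 against Ctrl, insoluble, where CLK2 was −0.90 (0.144). For NaAsO2 against Ctrl in the soluble fraction, CLK1 was −0.36 (0.0456) with DESeq2 and −0.56 (0.025) with library size alone, which gave 0.31 for CLK2 and 0.27 for CLK3. The fold threshold removed the calls of CLK1 (−0.59), CLK2 (0.50) and CLK3 (0.46, and −0.35 between fractions). Without the filter, CLK2 at 0.50 (0.131) and CLK3 at 0.46 (0.137) lost their exon calls, and the ratios of CLK1 at 0.76 (0.0838), CLK3 at 0.85 (0.0896) and CLK2 at −0.91 (0.0604) theirs.

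With separate TMM factors, ratios of CLK1 were 0.41 (Combo against NaAsO2, soluble), −0.06 (NaAsO2 against Ctrl, insoluble) and −0.34 (between fractions, reversed), of CLK2 −0.14 and 0.03 in the latter 2, of CLK3 0.51 in the first and 0.66 in the second (reversed), and of CLK4 −1.45 (Combo against NaAsO2, insoluble, adjusted p = 0.00821) and −0.72 (between fractions). With limma and a pseudocount of 5, Combo against NaAsO2 was 0.68 (0.0726) for CLK1 and 0.78 (0.057) for CLK3 in the soluble and −1.09 (0.0313) for CLK4 in the insoluble fraction, and −1.23 (0.0349) with the smaller pseudocount. Scaled by the exon factors, the CLK1 intron level between fractions reversed to 0.04. The causes were not tested.

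With 1 library left out, exon values were −0.50 to −0.29 for CLK1, 0.42 to 0.53 for CLK2 and 0.39 to 0.51 for CLK3 (NaAsO2 against Ctrl, soluble) and −0.17 to −0.11 for CLK2 between fractions. Ratios for NaAsO2 against Ctrl were −1.51 to −1.17 for CLK2 in the soluble fraction, and −1.0 to −0.60 for CLK1, −1.34 to −0.45 for CLK2 and −1.26 to −0.35 for CLK4 in the insoluble fraction. For Combo against NaAsO2 they were 0.57 to 0.87 for CLK1 and 0.75 to 0.99 for CLK3 in the soluble fraction, and 0.54 to 0.92 for CLK1, 0.35 to 0.90 for CLK3 and −1.49 to −0.58 for CLK4 in the insoluble fraction, and CLK4 was −0.36 to −0.13 between fractions.

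Same-numbered libraries of both fractions did not deviate together (correlation median 0.039, −0.315 to 0.337, 3 of 12 above 0.1, and 10 of 24 libraries were most like their own number), and those of different treatments had a median of −0.0295, with 10 of 36 above 0.1. All 3 were above it only between Combo and NaAsO2 in the insoluble fraction, where replicate 3 of both groups stood apart. With the replicate number as a block, CLK4 was −1.16 (adjusted p = 0.0437) for Combo against NaAsO2 in the insoluble ratio, the other 119 of 120 treatment values kept their side of the threshold, and 3 of 84 fraction values lost it: CLK2 at −0.64 (0.0665) for the NaAsO2 effect in exons, and CLK3 ratios at 0.82 (0.0654) in Combo and 0.77 (0.0644) in Ctrl.

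Over all genes, 67 of 354 counts of calls moved by more than 1.5 times, 29 of them in fits of the compared groups alone. In exons these gave 19 calls in place of 2435 (Combo against NaAsO2, insoluble), 5291 in place of 1141 (soluble), 1607 in place of 7606 (NaAsO2 against Ctrl, insoluble) and 7056 in place of 2351 (soluble), and in ratios 147 in place of 1236, 3537 in place of 5769 and 3614 in place of 2057 for these comparisons without Combo against NaAsO2, soluble. That one had 1741 exon calls with DESeq2, and separate TMM factors gave 2593 ratio calls in place of 1236. Depth limits the ratios: CLK2 and CLK4 had as few as 14 intron counts in a library.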
